A study of Mus musculus with 9 samples.

Results

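A set of 8 genes that mark basophils and mast cells was followed in mouse haematopoietic stem cells (HSCs): the granule enzymes Mcpt8, Prss34 and Cpa3, the histamine-forming enzyme Hdc, the 3 chains of the high-affinity IgE receptor (Fcer1a, Ms4a2 and Fcer1g), and Il1rl1, which encodes ST2, the receptor for IL-33. They were chosen by gene symbol, and all 8 of them had a row among the 19454 genes of the deposited tables. The 9 libraries were made from bone marrow cells of wild-type mice that were sorted as HSCs, the self-renewing cells that give rise to all blood lineages. Each library started from 1500 cells, whose polyadenylated RNA was copied into cDNA and enriched by 12 PCR cycles.

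The libraries form 3 groups of 3. In the spermidine group, 2 brain regions labelled mPFC and PAG (abbreviations usual for medial prefrontal cortex and periaqueductal grey) underwent chemogenetic inhibition, and the mice received spermidine, a polyamine of cells and gut bacteria. The inhibition group had the same silencing without the supplement. The control group has no brain intervention in its labels. Library names mark both silenced groups with AAV, a viral gene carrier, so the virus, any activating drug and the silencing itself cannot be told apart in a comparison with control. The labels give no age, sex, sort markers, receptor, promoter, drug or dose, nor which animals each library came from. P-values therefore measure only the spread between libraries, which may be technical.

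Basophils and mast cells are rare granule-bearing cells that arise from HSCs through progenitor cells. Both carry the IgE receptor FcεRI, an alpha chain (Fcer1a) that binds IgE, a beta chain (Ms4a2) that amplifies the signal, and a gamma chain (Fcer1g) that carries the signalling motif and is shared with many other receptors of myeloid cells and platelets. Crosslinking of the receptor releases histamine and granule proteases. In mice Mcpt8 and Prss34 are proteases typical of basophils, Cpa3 is a carboxypeptidase found in mast cells, basophils and their progenitors, and ST2 makes both cell types respond to IL-33. GATA2 is a transcription factor needed for both lineages.

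All 8 genes are protein-coding and are placed here by the gene bounds of GENCODE M21 on mm10. Mcpt8 (ENSMUSG00000022157) lies at chr14:56082166-56085273 on the minus strand, Prss34 (ENSMUSG00000056399) at chr17:25298394-25300165 on the plus strand, Cpa3 (ENSMUSG00000001865) at chr3:20215620-20242181 on the minus strand, and Hdc (ENSMUSG00000027360) at chr2:126593667-126619299 on the minus strand. Fcer1a (ENSMUSG00000005339) lies at chr1:173221284-173227214, Fcer1g (ENSMUSG00000058715) at chr1:171229572-171234365 and Ms4a2 (ENSMUSG00000024680) at chr19:11615523-11623719, each on the minus strand. Il1rl1 (ENSMUSG00000026069) lies at chr1:40429570-40465415 on the plus strand. None of the 8 overlaps a gene on the opposite strand in this annotation, and the microRNA genes Mir6949 and Mir7007 overlap Mcpt8 and Cpa3.

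The start regions of 5 of these genes are printed to show where GATA motifs occur in them. With inhibition 7 of the 8 genes rose while the GATA factors Gata2 and Gata1 fell, as given further on. A link of these changes to the motifs was not tested. The windows come from RefSeq on GRCm38.p6, run from 250 bases before to 50 after an annotated start, and read 5′ to 3′ on the gene's strand. Capitals mark GATAA or GATAG, searched on both strands, so that they also appear as TTATC or CTATC. These are Fcer1a at chr1:173227180-173227479 (minus), Ms4a2 at chr19:11623670-11623969 (minus), Prss34 at chr17:25298144-25298443 (plus), Mcpt8 at chr14:56085148-56085447 (minus) and the upstream start of Il1rl1 at chr1:40429320-40429619 (plus).
Fcer1a: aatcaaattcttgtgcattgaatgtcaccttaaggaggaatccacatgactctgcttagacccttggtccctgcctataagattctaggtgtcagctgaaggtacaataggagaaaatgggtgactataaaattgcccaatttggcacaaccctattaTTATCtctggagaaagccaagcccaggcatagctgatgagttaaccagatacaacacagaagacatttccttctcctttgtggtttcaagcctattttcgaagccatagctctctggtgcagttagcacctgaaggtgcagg
Ms4a2: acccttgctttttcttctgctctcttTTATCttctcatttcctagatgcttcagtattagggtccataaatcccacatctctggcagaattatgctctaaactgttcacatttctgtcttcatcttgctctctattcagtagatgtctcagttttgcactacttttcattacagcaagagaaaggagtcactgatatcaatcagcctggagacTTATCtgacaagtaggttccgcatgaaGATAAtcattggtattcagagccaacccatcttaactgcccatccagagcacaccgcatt
Prss34: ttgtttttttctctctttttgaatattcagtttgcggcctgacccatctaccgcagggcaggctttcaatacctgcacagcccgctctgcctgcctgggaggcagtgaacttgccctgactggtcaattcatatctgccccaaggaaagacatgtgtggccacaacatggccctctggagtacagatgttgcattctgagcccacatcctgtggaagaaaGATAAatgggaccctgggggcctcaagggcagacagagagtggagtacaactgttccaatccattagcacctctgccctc
Mcpt8: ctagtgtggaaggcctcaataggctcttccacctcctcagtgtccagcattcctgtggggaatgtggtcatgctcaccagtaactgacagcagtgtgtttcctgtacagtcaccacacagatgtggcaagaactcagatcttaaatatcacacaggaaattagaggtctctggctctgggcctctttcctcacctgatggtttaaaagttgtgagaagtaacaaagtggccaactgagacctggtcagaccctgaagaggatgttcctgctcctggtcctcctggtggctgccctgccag
Il1rl1: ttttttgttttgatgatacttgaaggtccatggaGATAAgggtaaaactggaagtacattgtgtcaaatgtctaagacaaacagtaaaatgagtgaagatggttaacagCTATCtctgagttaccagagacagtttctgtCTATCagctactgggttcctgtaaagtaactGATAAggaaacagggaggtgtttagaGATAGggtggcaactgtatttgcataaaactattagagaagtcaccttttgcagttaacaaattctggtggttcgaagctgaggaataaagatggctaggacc

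The 8 genes have 9 such windows, since Il1rl1 has 2 annotated starts. Of the 9 windows 7, from 6 genes, held at least 1 GATA motif, against 41.6% of 32851 mouse windows of 300 bases. The motif nearest the start lay 30 bases upstream in Prss34, 45 in Cpa3, 10 in Ms4a2 and 92 in Fcer1a. The upstream window of Il1rl1, the gene that fell, held 5 matches, the most of the 9 windows, and the windows of Mcpt8 and Fcer1g held none. A C/EBP motif, TTGCNNAA on either strand, was found in the Fcer1a window and in the upstream Il1rl1 window, against 10.8% of all windows, with no overlap with a GATA motif. A match is a description of the letters only.

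Total counts were 16096276 to 25360256 per library, and 14461 genes had enough counts to be tested. CPM here means a gene's count divided by the size of its library, which trimmed-mean (TMM) scaling makes comparable. A count of 0 allows up to 0.118 to 0.186 CPM (3 counts per library, counting error only). The HSC label did not hold equally in the groups. Ly6a (Sca-1), a surface antigen of mouse HSCs, averaged 94.4 CPM with spermidine and 83.5 CPM with inhibition, against 6.20 CPM in control. Procr, another HSC surface marker, had 7.23 to 8.02 CPM with spermidine and 3.62 to 4.77 CPM with inhibition, but only 1 to 3 counts per library in control, at or under the limit of detection. Slamf1 (CD150) ran the other way, at 13.7 CPM with spermidine, 17.6 CPM with inhibition and 104 CPM in control. Transcripts of 14 neutrophil genes took 2.57% to 2.68% of counts with spermidine, 5.95% to 6.08% with inhibition and 0.598% to 0.611% in control, and 12 megakaryocyte genes took 0.0269% to 0.0283%, 0.0221% to 0.0226% and 0.291% to 0.296%. Bulk libraries cannot tell a change in the number of cells of a type from a change in RNA per cell, and this holds for every result that follows.

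The first comparison asks how these genes differed in HSC libraries after silencing of the brain regions. With inhibition 7 of the 8 genes rose and Il1rl1 fell, by the edgeR quasi-likelihood test with Benjamini-Hochberg adjustment over all tested genes. Fcer1a rose most, 7.29-fold, and Cpa3 least, 1.31-fold, and 6 of the 7 rose at least 2-fold. Over all tested genes 72.4% were called, 36.2% higher and 36.1% lower, and 29.0% were called at 2-fold or more, 15.0% higher and 14.0% lower. The median log2 fold change of the 8 genes was 1.49, against 0.02 over all tested genes. In the inhibition libraries the 8 genes together took 0.106% to 0.109% of counts, against 0.0456% to 0.0467% in control. The groups did not overlap for any of the 8 genes, as for 74.5% of all tested genes.

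**Figure D1:**
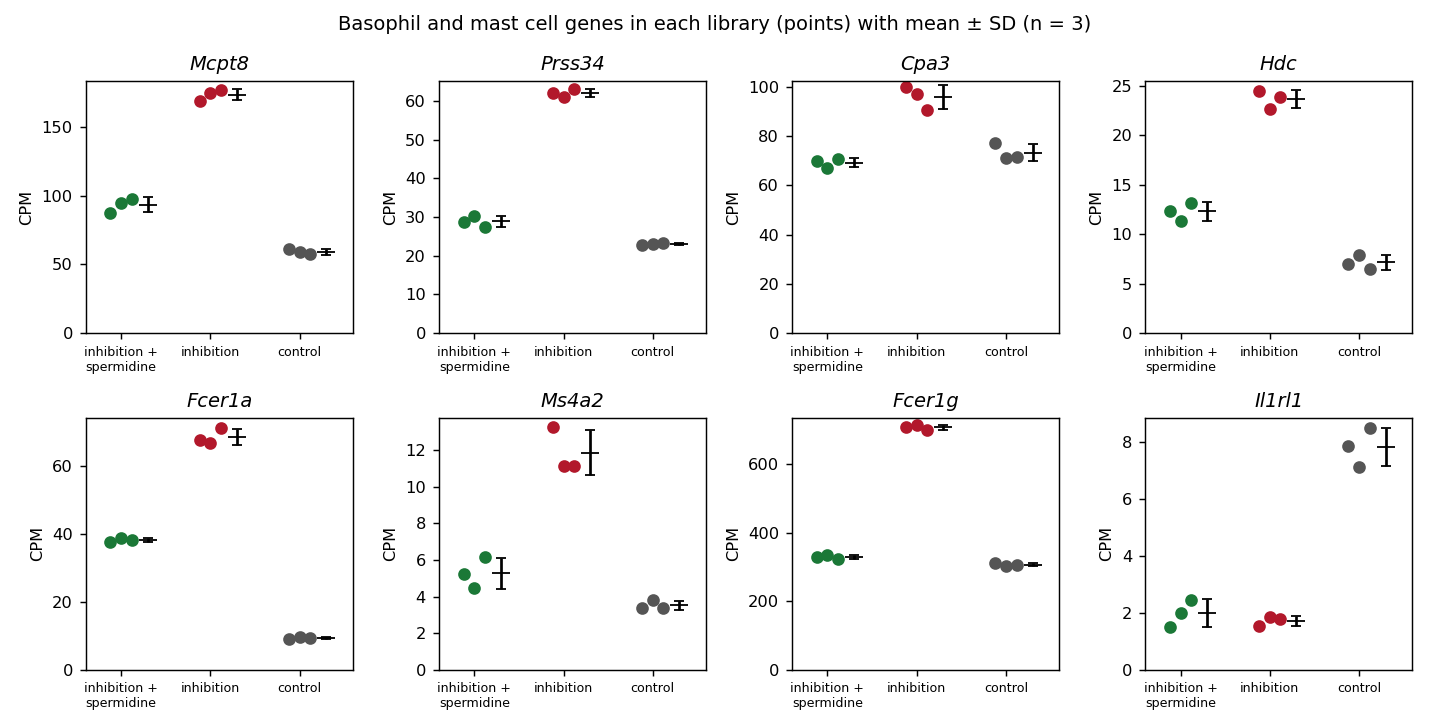
CPM of each of the 8 genes (y axis, from 0) in the libraries of the spermidine, inhibition and control groups (points), with the mean and SD of 3 libraries beside them. The panels of the 7 genes that rose have their highest points in the inhibition group, as Mcpt8 at 169 to 177 CPM, and the Il1rl1 panel has its highest in control, at 7.13 to 8.48 CPM.

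Among the basophil proteases, Mcpt8 had 169, 175 and 177 CPM in the inhibition libraries, against 61.6, 58.9 and 57.5 CPM in the control libraries. All 3 inhibition libraries lay far above all 3 control libraries (log2 fold change 1.55, SE 0.043, adjusted p = 3.63e-15, edgeR). Prss34, a tryptase-like serine protease, had 62.0, 61.0 and 63.1 CPM with inhibition and 22.9, 23.1 and 23.2 CPM in control (log2 fold change 1.43, SE 0.047). TPM is a unit that also corrects for transcript length. In TPM the ratio of Mcpt8 to Prss34 was 3.78, 4.26 and 3.88 with inhibition and 3.76, 3.54 and 3.45 in control. The nearest values of the 2 groups, 3.78 and 3.76, almost met, and whether Mcpt8 rose more than Prss34 was not tested. Mcpt8 belongs to a cluster of related granule proteases, and reads shared with a close copy would make its value uncertain.

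Cpa3 had 100.2, 97 and 90.8 CPM with inhibition and 77.2, 71.1 and 71.6 CPM in control. The groups were apart, but the rise was the smallest of the 7 (log2 fold change 0.39, SE 0.044, adjusted p = 5.15e-07, edgeR), and 64.2% of tested genes changed more. The ratio of Cpa3 to Mcpt8 in TPM was 0.360 to 0.419 with inhibition and 0.861 to 0.894 in control. Hdc, histidine decarboxylase, which makes histamine from histidine, had 24.4, 22.6 and 23.9 CPM with inhibition and 6.98, 7.93 and 6.47 CPM in control (log2 fold change 1.73, SE 0.083).

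The IgE receptor chains rose to different degrees. Fcer1a had 67.6, 66.7 and 71.2 CPM with inhibition and 9.09, 9.54 and 9.49 CPM in control (log2 fold change 2.87, SE 0.052, adjusted p = 1.59e-17, edgeR). Of all tested genes 5.15% changed more. Ms4a2 was the least abundant of the 3 chains, with 13.3, 11.1 and 11.1 CPM in the inhibition libraries and 3.39, 3.81 and 3.4 CPM in the control libraries (log2 fold change 1.73, SE 0.12). Fcer1g, the shared gamma chain, was the most abundant of the 8 genes, with 710, 714 and 699 CPM against 312, 303 and 305 CPM in control (log2 fold change 1.21, SE 0.028). In TPM the gamma chain outnumbered the alpha chain 18.3 to 20 times with inhibition and 60.8 to 65.4 times in control. The alpha chain in turn outnumbered the beta chain 6.60 to 10 times with inhibition and 3.60 to 3.91 times in control, and neither ratio overlapped between the 2 groups.

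**Figure D2:**
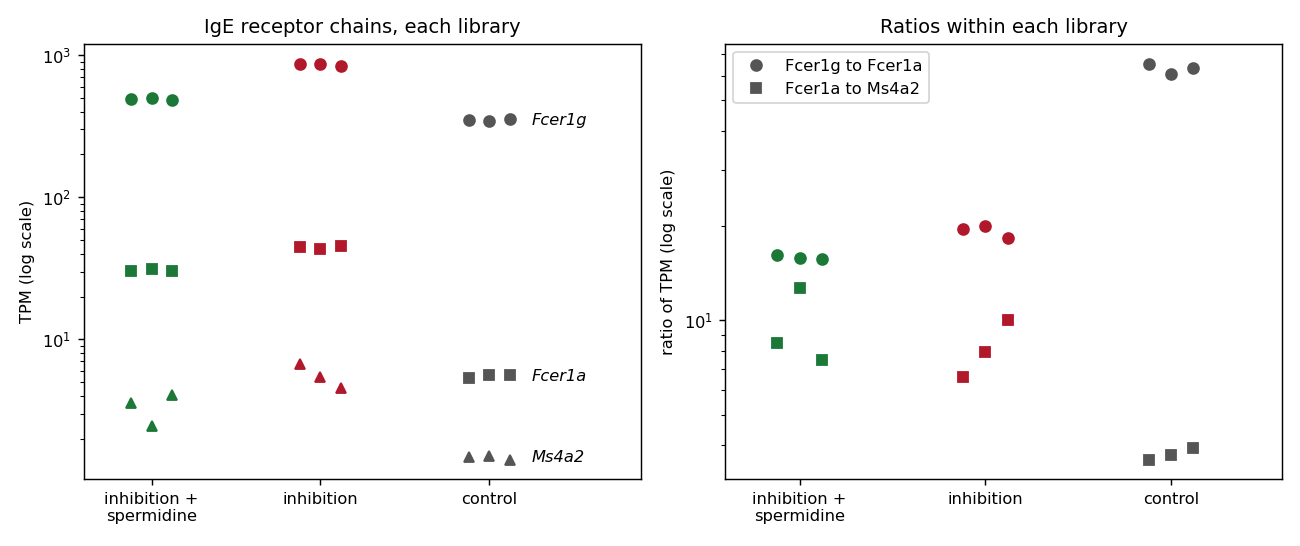
Left, TPM of the IgE receptor chains Fcer1g (circles), Fcer1a (squares) and Ms4a2 (triangles) in each library on a log axis. Right, within-library ratios of TPM on a log axis, where the Fcer1g to Fcer1a ratio is near 16 with spermidine and 19 with inhibition but near 63 in control.

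Il1rl1 was the exception. It had 1.52, 1.84 and 1.77 CPM in the inhibition libraries and 7.85, 7.13 and 8.48 CPM in the control libraries, with no overlap (log2 fold change -2.18, SE 0.16, adjusted p = 1.72e-09, edgeR). On log2(TPM + 1), which understates the change of low genes, the log2 fold change was -0.93, under 2-fold. The gene gives a long membrane receptor and a shorter soluble decoy from alternative transcripts, and GENCODE lists coding transcripts of 5302, 5053, 2661, 1216 and 375 bases. The effective length implied by the ratio of count to TPM, put on a scale of bases with 282 single-transcript genes, was 5064, 5354 and 4791 bases with inhibition and 4057, 3797 and 3667 bases in control. The implied average transcript was thus longer with inhibition, but from only 24.8 to 44.4 counts per library, against 129 to 164 in control. At 37.0 to 51.1 counts per library it ran from 1783 to 5211 bases within the spermidine group. A change in transcript use was not tested. Per length (TPM), Il1rl1 had 0.213 to 0.256 with inhibition and 1.26 to 1.55 in control.

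Ordered by TPM, the levels in the inhibition group were Fcer1g (855), Mcpt8 (147), Cpa3 (56.0), Fcer1a (44.4), Prss34 (37.0), Hdc (11.1), Ms4a2 (5.59) and Il1rl1 (0.238), with no overlap between neighbours. In control the order was Fcer1g (349), Mcpt8 (44.9), Cpa3 (39.2), Prss34 (12.6), Fcer1a (5.52), Hdc (2.69), Ms4a2 (1.48) and Il1rl1 (1.37), and there Ms4a2 and Il1rl1 overlapped. Fcer1a thus stood above Prss34 with inhibition and below it in control.

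The second comparison asks what the spermidine supplement changed in the silenced mice. With spermidine the 7 genes that were high with inhibition were lower, and Il1rl1 did not pass. Over all tested genes 58.1% were called in this comparison, 28.9% lower and 29.1% higher. Prss34, Fcer1g and Ms4a2 fell by at least 2-fold, as did 3.24% of tested genes, and none of the 8 rose by that much, as did 9.45% (12.7% in either direction). The groups did not overlap for 7 of the 8 genes, as for 62.8% of tested genes. With scaling by library totals alone the log2 fold change of the median gene was 0.26 higher in both spermidine comparisons, and 81.1% of calls in this one were then higher, against 50.2% with TMM scaling. The same 7 genes were lower under both scalings, but with library totals none of them fell 2-fold (Prss34 -0.84, Fcer1g -0.84 and Ms4a2 -0.91 on the log2 scale). The median log2 fold change of the 8 genes was -0.92, against 0.03 over all tested genes.

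**Figure D3:**
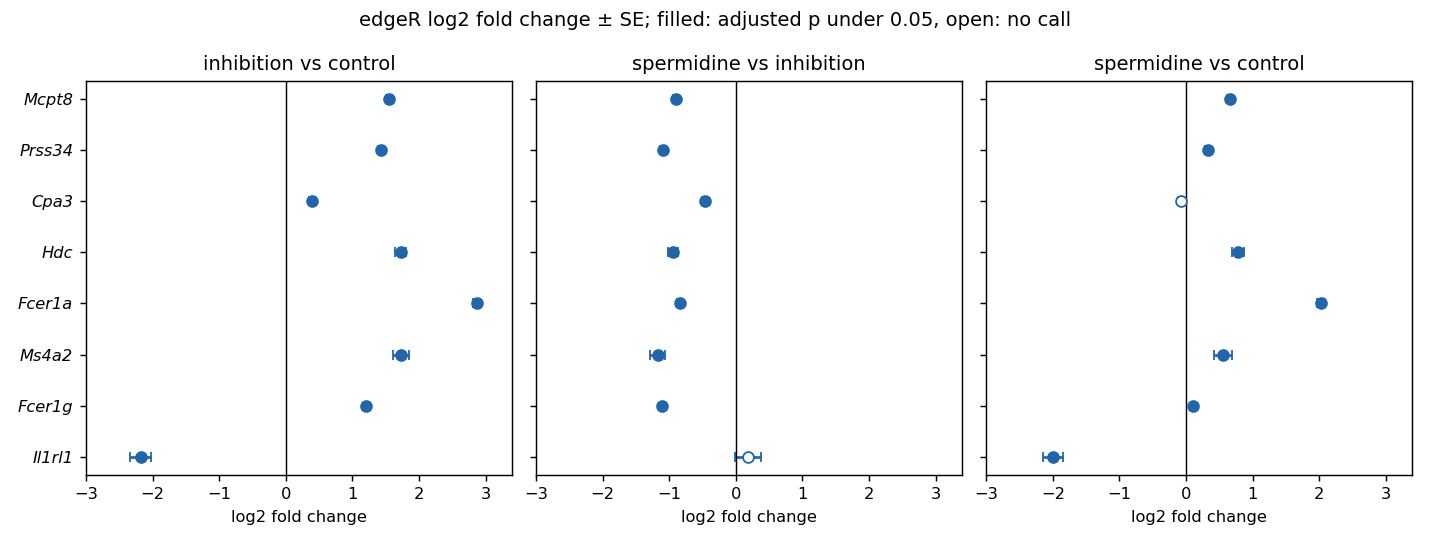
log2 fold change of each gene (x axis) with its SE as bars, in the 3 comparisons, from edgeR. Filled points passed an adjusted p of 0.05, and the open points are Il1rl1 in spermidine against inhibition (0.18) and Cpa3 in spermidine against control (-0.08).

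Fcer1g had the smallest p of the 8 and fell to 330, 335 and 323 CPM in the spermidine libraries, against 710, 714 and 699 CPM in the inhibition libraries (log2 fold change -1.10, SE 0.027, adjusted p = 1.18e-14, edgeR). Ms4a2 had 5.24, 4.46 and 6.14 CPM with spermidine and 13.3, 11.1 and 11.1 CPM with inhibition (log2 fold change -1.17, SE 0.11). Fcer1a had 37.7, 38.8 and 38.1 CPM with spermidine and 67.6, 66.7 and 71.2 CPM with inhibition (log2 fold change -0.84, SE 0.041). The 3 chains were lower in all 3 spermidine libraries than in any inhibition library. The gamma to alpha ratio in TPM was 15.7 to 16.1 with spermidine and 18.3 to 20 with inhibition, while the alpha to beta ratio overlapped, at 7.49 to 12.7 with spermidine and 6.60 to 10 with inhibition.

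Prss34 had 28.8, 30.3 and 27.5 CPM with spermidine and 62.0, 61.0 and 63.1 CPM with inhibition (log2 fold change -1.10, SE 0.044). Mcpt8 had 87.6, 95 and 98.0 CPM with spermidine and 169, 175 and 177 CPM with inhibition (log2 fold change -0.90, SE 0.041). Hdc, at 12.4, 11.3 and 13.2 CPM with spermidine and 24.4, 22.6 and 23.9 CPM with inhibition, fell by a similar factor (log2 fold change -0.95, SE 0.073). Of the 7 genes that fell, Cpa3 moved least, at 70.1, 67.2 and 70.6 CPM with spermidine and 100.2, 97 and 90.8 CPM with inhibition (log2 fold change -0.47, SE 0.043).

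Il1rl1 had 1.49, 2.00 and 2.46 CPM with spermidine and 1.52, 1.84 and 1.77 CPM with inhibition. The groups overlapped, and the fold of 1.13 has a 95% interval of 0.871 to 1.48 (adjusted p = 0.441, edgeR). Per length, Il1rl1 had 0.728, 0.336 and 0.525 TPM with spermidine and 0.213, 0.243 and 0.256 TPM with inhibition, with all 3 spermidine libraries above. The implied effective length was 1783 bases in spermidine replicate 1 against 5211 and 4080 bases in the other spermidine libraries. With limma on log2(TPM + 1), which uses no TMM scaling, it was called higher (log2 fold change 0.30, adjusted p = 0.023). The median gene of that fit was also higher with spermidine, at 0.21, and 82.1% of its calls were higher. With the same unit and test but without spermidine replicate 1, Il1rl1 kept its direction but was not called (log2 fold change 0.21, adjusted p = 0.0858). That last setting was added after seeing the data.

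The third comparison sets the spermidine group against control, and it shares its libraries with the other comparisons. With spermidine 6 of the 8 genes were still higher than in control, Il1rl1 was lower, and Cpa3 did not pass. Over all tested genes 78.1% were called, 41.0% higher and 37.1% lower. By size only Fcer1a was at least 2-fold higher and Il1rl1 at least 2-fold lower, against 20.7% and 12.2% of tested genes, or 32.9% in either direction. Scaled by library totals alone, 67.7% of calls over all genes were higher, against 52.5% with TMM.

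Fcer1a stayed 4.07-fold higher, at 37.7, 38.8 and 38.1 CPM with spermidine and 9.09, 9.54 and 9.49 CPM in control (log2 fold change 2.03, SE 0.055, adjusted p = 3.04e-15, edgeR). Hdc was 1.71-fold higher, Mcpt8 1.58-fold, Ms4a2 1.47-fold and Prss34 1.26-fold. Fcer1g differed by 1.08-fold only, at 323 to 335 CPM with spermidine and 303 to 312 CPM in control (log2 fold change 0.10, SE 0.028, adjusted p = 0.00255), and without the filter on low counts it did not pass (log2 fold change 0.05, adjusted p = 0.172). Cpa3 had 67.2 to 70.6 CPM with spermidine and 71.1 to 77.2 CPM in control (fold 0.946, 95% interval 0.890 to 1.01, adjusted p = 0.114), and its direction turned to higher when libraries were scaled by totals alone (log2 fold change 0.18, adjusted p = 0.00145). Il1rl1 had 1.49 to 2.46 CPM with spermidine and 7.13 to 8.48 CPM in control (log2 fold change -2.0, SE 0.15, adjusted p = 2.86e-09), and on log2(TPM + 1), which understates low genes, its log2 fold change was -0.64. The groups did not overlap for any of the 8 genes, as for 79.8% of all tested genes.

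**Figure D4:**
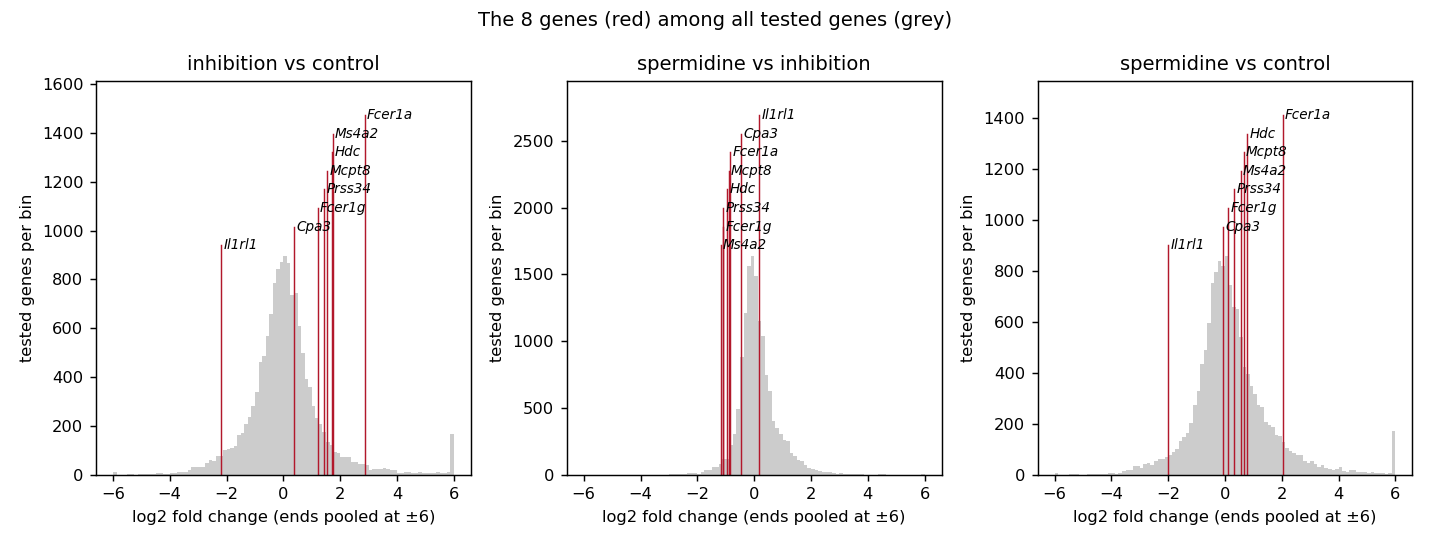
Histograms of the log2 fold change of all 14461 tested genes (grey, x axis, values beyond 6 pooled at the ends) for the 3 comparisons, with the 8 genes as red lines. With inhibition against control Fcer1a lies at 2.87 and Il1rl1 at -2.18, on opposite sides of the bulk, and with spermidine against inhibition 7 of the lines lie left of 0.

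Other genes of the lineages did not all move with the 8. Of 38 further basophil and mast cell genes 26 were measured and 23 tested. With inhibition against control 14 rose, 6 fell and 3 did not pass (median log2 fold change 0.83), where 36.2% of all tested genes rose and 36.1% fell. With spermidine against inhibition 9 rose and 8 fell, where 29.1% of all tested genes rose and 28.9% fell. Ms4a3, a gene of granulocyte-monocyte progenitors and basophils, averaged 2050 CPM with inhibition and 674 CPM in control (log2 fold change 1.60, SE 0.026), and 946 CPM with spermidine. Alox5ap, which serves leukotriene synthesis, averaged 610 CPM with spermidine, 860 CPM with inhibition and 315 CPM in control. Lilrb4a, an inhibitory receptor of mast and myeloid cells, averaged 28.9 CPM with spermidine, 86.5 CPM with inhibition and 3.35 CPM in control. The chemokine Ccl4 was highest with spermidine, at 398 CPM, with 301 CPM under inhibition and 113 CPM in control. The tetraspanin Cd9 fell with inhibition, to 308 CPM against 720 CPM in control (log2 fold change -1.23, SE 0.027). Among the others of this list that fell, and named after their values were seen, were Itga2 (CD49b), a surface marker of mouse basophils and NK cells, at 0.542 CPM with inhibition and 1.11 CPM in control, the adenosine receptor Adora3 (1.90 and 4.74 CPM) and Ltc4s, the leukotriene C4 synthase (13.5 and 17.8 CPM).

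A short list of 6 basophil markers holds 4 of the 8 genes (Mcpt8, Prss34, Ms4a2 and Fcer1a), so it adds only Cd200r3, a receptor of basophils and mast cells, and Il3ra, the alpha chain of the IL-3 receptor. Both rose with inhibition against control. Cd200r3 averaged 5.65 CPM with inhibition and 1.69 CPM in control, and Il3ra 3.18 CPM and 1.75 CPM. Of 6 mast cell markers 3 were measured, Cpa3, Ms4a2 and Cma1, and they were called higher with inhibition against control. Other genes of mast cells, named after their values were seen, went both ways. Kit, Il1rl1, Gata2 and Adora3 fell, whereas Hdc, Mitf, Cd200r3 and Slc18a2 rose. Cma1, a chymase of connective tissue mast cells, had 1.33 to 1.88 CPM with spermidine and 1.45 to 2.55 CPM with inhibition, against 0, 0 and 0.103 CPM in control. The rest of the 6 mast cell markers, the tryptases Tpsab1 and Tpsb2 and Mcpt4, had no row under these symbols among the 19454 genes. Of the 10 eosinophil genes 5 rose and 3 fell with inhibition against control, where 36.2% of all tested genes rose and 36.1% fell. The eosinophil granule genes Prg2 (702 CPM with inhibition and 816 CPM in control), Prg3 (132 and 160 CPM) and Epx (31.8 and 48 CPM) fell, whereas Ear1 (172 and 78.5 CPM) and Ear2 (117 and 62.2 CPM), ribonuclease genes with close copies that can share reads, rose. Alox15 (log2 fold change 4.81, SE 0.37), Ccr3 (2.79, SE 0.35) and Ear6 (0.53, SE 0.041) rose too.

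**Figure D5:**
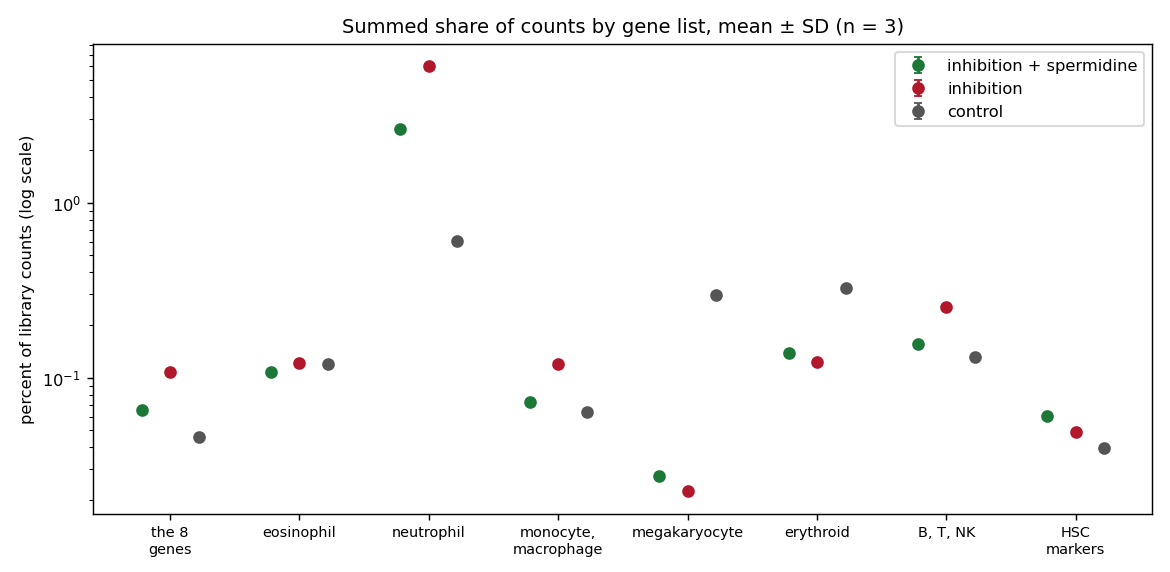
Percent of library counts (log axis) taken by the 8 genes and by marker lists of other blood cells, as mean and SD of 3 libraries in the spermidine, inhibition and control groups. The 8 genes and the neutrophil list are highest with inhibition and lowest in control (0.108% and 0.0461%, 6.02% and 0.607%). The monocyte and macrophage list (0.119% and 0.0633%) and the B, T and NK list (0.252% and 0.131%) have the same order. The megakaryocyte list is highest in control.

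The rise of the 7 genes with inhibition, and their lower level with spermidine, went with the neutrophil list given above, of which all 14 genes rose with inhibition against control and all 14 were lower with spermidine than with inhibition. The monocyte and macrophage list, at 0.118% to 0.120% of counts with inhibition and 0.0616% to 0.0642% in control, had 10 genes higher and 1 lower of 12. The B, T and NK list had the same order of groups. It took 0.151% to 0.16% of counts with spermidine, 0.246% to 0.259% with inhibition and 0.126% to 0.136% in control. All 10 of its tested genes rose with inhibition against control, and 7 were lower and 1 higher with spermidine than with inhibition. Over all tested genes 36.2% rose and 36.1% fell with inhibition against control, and 28.9% were lower and 29.1% higher with spermidine than with inhibition. None of the 6 defining neutrophil markers was at 0 in any group. The part of these cells in the values of the 8 genes was not tested. Fcer1g, Hdc and Cpa3 are also expressed in other myeloid cells or in progenitors.

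Receptors that use the gamma chain did not move as one. Of 7 tested partners of Fcer1g, 5 rose with inhibition against control and 2 fell, each at least 2-fold. At that size 15.0% of all tested genes rose and 14.0% fell. Fcgr3, a receptor for IgG, averaged 491 CPM with inhibition and 139 CPM in control, and Fcgr4, another, 24.9 and 2.37 CPM. Clec4e (Mincle), a receptor for fungal and mycobacterial glycolipids, averaged 65.3 CPM with inhibition and 6.22 CPM in control. Its neighbour Clec4d fell, to 24.8 CPM against 155 CPM in control (log2 fold change -2.65, SE 0.046). With spermidine against inhibition 5 of the 7 were lower, Fcgr3 by 1.20 on the log2 scale, where 28.9% of all tested genes were lower.

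The signalling genes below FcεRI were split. Of 20 tested, 7 rose and 11 fell with inhibition against control (median log2 fold change -0.25), where 36.2% of all tested genes rose and 36.1% fell. Rac2, a GTPase of blood cells, averaged 323 CPM with inhibition and 124 CPM in control, and Prkcb, a protein kinase C, 12.1 and 1.91 CPM. The adaptor Lcp2 (SLP-76) averaged 74.2 and 38.4 CPM, and the phosphatase Ptpn6 (SHP-1) 51.1 and 26.1 CPM. Genes that act close to the receptor were among those that fell, and 3 are named after their values were seen: the adaptor Lat (11.5 CPM with inhibition and 25.3 CPM in control), the kinase Fyn (4.37 and 9.42 CPM) and the kinase Syk (11.6 and 17.5 CPM). The kinase Lyn rose (36.9 and 21.5 CPM). With spermidine against inhibition 6 rose and 7 fell, and 11 rose and 3 fell when libraries were scaled by totals alone.

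Cytokine receptors of the lineage were mostly higher. Of 12 tested, 9 rose and 2 fell with inhibition against control, where 36.2% of all tested genes rose and 36.1% fell. With spermidine against inhibition 3 rose and 3 fell, and 6 rose and 1 fell when scaled by library totals alone. Csf2rb, the chain shared by the receptors for IL-3, IL-5 and GM-CSF, averaged 36.9 CPM with inhibition and 8.49 CPM in control (log2 fold change 2.12, SE 0.059), and 21.9 CPM with spermidine. It has a close copy, Csf2rb2, with which it may share reads. Kit, the receptor for stem cell factor on HSCs and mast cells, fell slightly, to 36.5 CPM against 43.3 CPM in control (log2 fold change -0.25, SE 0.044). Il1rap, the partner chain of ST2, rose to 9.93 CPM with inhibition against 3.49 CPM in control while Il1rl1 fell. Of the 10 tested genes of IL-33 signalling 4 rose and 3 fell, with the adaptor Myd88 (29.2 and 13.7 CPM) and the kinase Irak4 (44.0 and 19.7 CPM) among the higher. With spermidine against inhibition 1 of the 10 rose and 3 fell, and 8 rose and none fell when scaled by library totals alone, so no direction is given.

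Of 8 histamine genes, Hdc included, 6 were measured and 4 tested, and these 4 rose with inhibition against control, where 36.2% of all tested genes did. Hnmt, which inactivates histamine by methylation, averaged 33.4 CPM with inhibition and 9.88 CPM in control (log2 fold change 1.76, SE 0.071). Hrh2, a histamine receptor, averaged 3.01 and 1.21 CPM, and Slc18a2, the transporter that loads histamine into granules, 39.4 and 33.8 CPM. With spermidine Slc18a2 was higher than with inhibition, at 50.2 CPM (log2 fold change 0.36, SE 0.06), whereas Hdc, Hnmt and Hrh2 were lower. Scaled by library totals alone, 2 of these 3 were called lower.

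Genes of granule build-up and release gave no single direction. Of 14 tested, 7 rose and 6 fell with inhibition against control, where 36.2% of all tested genes rose and 36.1% fell. Ctsc, the peptidase that activates granule serine proteases, averaged 213 CPM with inhibition and 77.6 CPM in control, and 154 CPM with spermidine. Srgn, the proteoglycan core that holds granule proteases, had 2111 CPM with inhibition, 1531 CPM in control and 1537 CPM with spermidine. The release factor Unc13d fell, to 170 CPM with inhibition against 1127 CPM in control, as did Stxbp2 (64.6 and 194 CPM) and Rab27b (16.1 and 84.8 CPM).

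Of 19 tested transcription factors of the lineage 10 rose and 8 fell with inhibition against control. Over all tested genes 36.2% rose and 36.1% fell. Gata2 had a mean of 9.54 CPM with inhibition and 56.4 CPM in control (log2 fold change -2.57, SE 0.067), and Gata1 2.82 CPM and 21.6 CPM (log2 fold change -2.92, SE 0.096), in libraries where the megakaryocyte list was also lower. With spermidine Gata2 averaged 14.5 CPM, above inhibition (log2 fold change 0.61, SE 0.078). Mitf, a mast cell factor, averaged 2.56 CPM with inhibition and 0.980 CPM in control, and Cebpa, a granulocyte factor, 10.4 and 8.94 CPM (log2 fold change 0.22, SE 0.084). Hes1, a Notch target, rose to 14.4 CPM with inhibition against 1.04 CPM in control, and Lmo4 to 116 against 44.4 CPM.

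Across the 9 libraries, which fall into 3 groups, so that a likeness mainly reflects the 3 group means, the profiles of log2 CPM most like those of the 8 genes differed from member to member. Among 8228 other named genes with a mean of at least 5 CPM, Fcer1a was most like the neutrophil genes Lcn2 and S100a9 (Pearson r = 0.9997 for both). Mcpt8 was most like Creld2 (r = 0.9984), a secreted chaperone, and the granule protease Prtn3 (r = 0.9983). Fcer1g was most like Manf (r = 0.9995) and Tspo (r = 0.9991), and Prss34 most like Oat (r = 0.9982) and Slc40a1 (r = 0.998). For Hdc these were Arhgdib and Nipsnap3b, for Ms4a2 Nars and Mcu, for Cpa3 Fbxo5 and Mapre1, and for Il1rl1 Wdr83 and Usp37, with r from 0.985 to 0.9956. Within the 8 genes, r ranged from 0.586 (Cpa3 with Fcer1a) to 0.99 (Hdc with Mcpt8) among the 7 that rose, and was negative for Il1rl1 with each of them, from -0.96 with Fcer1a to -0.414 with Cpa3.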

How the data were processed

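The authors deposited estimated counts per gene, not scaled between libraries, of which 48.2% were whole to within 1e-06, and TPM values scaled within each library for length and depth. Per the submitters' processing notes the build was mm10, and the tools named there, with no roles, are edgeR 3.24.3, HTSeq 0.10.0, STAR 2.6.1d and Trim Galore 0.6.2. Per the file headers, no replicates were pooled. Counts were rounded and tested with edgeR 4.0.16 in R 4.3.3 (quasi-likelihood, TMM, default filter on low counts, all 9 libraries in 1 fit, Benjamini-Hochberg over 14461 of 19454 genes, threshold 0.05), after a test on simulated data. TMM factors were 0.931 to 1.14. With 3 libraries against 3 an exact permutation test of 1 value could not reach that threshold and was not used.

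Identifiers of 19437 genes matched GENCODE M21. Replicate libraries differed by more than sampling noise (mean chi-squared per gene 2.45 to 7.76). Libraries sharing a replicate number had residual correlations of -0.0365 to 0.0526, so no block was used. The 8 genes and the 15 other lists (190 of 215 entries tested) were chosen from general knowledge with earlier results of these data known. Genes given values beyond the 8 are, from each list, those of smallest p per comparison (up to 4, or 2 for other cell types). Known factors and receptors of the lineage, general HSC markers and cell type markers are also given. For each of the 8, so are the 2 most similar profiles on log2 CPM (prior count 2). The rest are genes marked as named after their values were seen, and a few too low for a test. Alternatives were RLE or total scaling, DESeq2 1.42.0, no filter, fewer libraries, a replicate block, limma 3.58.1 on log2(TPM + 1) or log2(TPM + 0.1) for genes of at least 1 TPM in 3 libraries or unfiltered, and leaving out 183 genes of other cells.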

Additional observations from a re-analysis of the deposited data

How the results depend on the processing

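The 8 genes in 3 comparisons gave 24 values. Over the 19 alternatives, all 8 kept direction and call with inhibition against control, and the 7 genes lower with spermidine than with inhibition did so too. With inhibition against control Fcer1a ranged from 2.80 to 2.99 on the log2 scale, and Il1rl1 from -2.26 to -0.93, with the smallest change on log2(TPM + 1). In spermidine against control Il1rl1 ranged from -2.16 to -0.64. The range of Cpa3 in spermidine against inhibition was -0.52 to -0.17. The replicate block gave 1.55 for Mcpt8 with inhibition against control and changed no call of the 8 genes. The numbers did not pair the libraries. In spermidine against control, Cpa3 reversed with library totals (0.18), limma on log2(TPM + 1) with and without a filter (0.33) and log2(TPM + 0.1) (0.33). In the same order the median gene lay at 0.323, 0.251, 0.132 and 0.297. Cpa3 was called lower without the count filter (-0.13, adjusted p = 0.0117) and without inhibition replicate 1 or 3 or control replicate 2, with values from -0.123 to -0.062 over all libraries left out in turn. Fcer1g in that comparison was not called without the count filter (0.051). Il1rl1 in spermidine against inhibition was called higher with limma on log2(TPM + 1), filtered or not (0.30), and on log2(TPM + 0.1) (0.85), and ranged from 0.02 to 0.36 without 1 library. In these limma fits, which use no TMM scaling, the median gene lay at 0.206 filtered, 0.129 unfiltered and 0.253 with log2(TPM + 0.1).

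Counts over all genes moved with library totals and with the limma fits, and little with RLE scaling. The limma fits change the unit, the test and the filter together and use no TMM scaling. With spermidine against inhibition, 4213 genes were higher and 4183 lower, against 3989 and 4386 with RLE scaling, 7711 and 1793 with library totals, 1119 lower with limma on log2(TPM + 1), 1094 lower with log2(TPM + 0.1), and 7997 and 1333 with no TPM filter. With spermidine against control, 5930 were higher and 5363 lower, against 2415 and 2380 lower with the same limma fits and 9239 and 2918 with no TPM filter. The setting with library totals leaves out only the TMM factors. These were 1.12 to 1.14 with spermidine, 0.931 to 0.95 with inhibition and 0.932 to 0.949 in control. Which of their changes moved the counts of the limma fits was not tested. The depth limits Cma1, Gzmb and Procr in control, which had at most 3 counts per library.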

Other observations

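A few genes of these lineages were too low for a test and belong in no comparison. Mrgprb2, a receptor of connective tissue mast cells, had 0.926, 0.391 and 0.663 CPM in the spermidine libraries, 0.123, 0.125 and 0.0999 CPM in the inhibition libraries and 0 in all 3 control libraries, where a count of 0 allows up to 0.147 to 0.170 CPM. Mcpt9, a mast cell protease gene, averaged 0.174 CPM with spermidine, 0.0443 CPM with inhibition and 0.189 CPM in control. The histamine receptor Hrh1 averaged 0.134 CPM with spermidine, 0.112 CPM with inhibition and 0.0179 CPM in control, and Aoc1, an enzyme that degrades histamine, 0.184, 0.0943 and 0.0179 CPM. Mcpt9, Hrh1 and Aoc1 had at most 6 counts in any library.

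The transporter gene Slc45a3, one of the further basophil and mast cell genes and named here after its values were seen, had 0.709 CPM with spermidine and 0.0777 CPM with inhibition on average, against 3.98 CPM in control, with 0 to 3 counts per library with inhibition. Il4, a cytokine of basophils, mast cells and T cells, also named after its values were seen, averaged 4.42 CPM with spermidine, 2.38 CPM with inhibition and 1.68 CPM in control. Il4 was higher with spermidine than with inhibition (log2 fold change 0.91, SE 0.17, adjusted p = 0.000289, edgeR), where 7 of the 8 genes of the report were lower.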
